A study of Mus musculus with 6 samples.

Results

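Fkbp5 and 9 other genes known to respond to glucocorticoids or to carry their signal were described in small intestine tumors of mice treated with PEGPH20, against tumors of mice given vehicle. The 10 genes were taken by symbol out of 21878 gene rows: Fkbp5, Tsc22d3, Sgk1, Klf9, Zbtb16, Nr3c1, Cebpd, Mt1, Mt2 and Pdk4. They were chosen when the lower Fkbp5 signal in PEGPH20 tumors was already known, so their levels by treatment are given as a description and carry no test.

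PEGPH20 is a pegylated recombinant human hyaluronidase, an enzyme that degrades the matrix polysaccharide hyaluronan. Mice of the genotype Prkcif/fPrkczf/f;Villin-Cre were dosed from 11 weeks of age with PEGPH20 at 0.0375 mg/kg, with 2 doses per week over 3 weeks, or with vehicle on the same schedule. Tumors were collected when the mice were 14 weeks old, and each treatment has 3 libraries (PEGPH20 replicates 4, 5 and 6, vehicle replicates 1, 2 and 3). Both groups carry floxed Prkci and Prkcz, the atypical protein kinase C genes, and Villin-Cre, which recombines them in the intestinal epithelium, so the stroma of these tumors is not its target. Messenger RNA was counted by tags near the transcript 3' end, and the deposited values are in CPM, reads of a gene per 1000000 reads of its library. Levels of different genes are set against each other only as tag ratios within a library and as parts of summed marker levels.

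Glucocorticoids are steroid hormones that bind the glucocorticoid receptor, encoded by Nr3c1 and held ready in the cytoplasm by HSP90 and its co-chaperones. The bound receptor enters the nucleus and acts on DNA elements built of paired AGAACA sites, inducing genes such as Fkbp5, Tsc22d3, Sgk1, Zbtb16 and Per1 and damping many inflammatory genes. Fkbp5 encodes FKBP51, an HSP90 co-chaperone that lowers the receptor's affinity for hormone, which makes the gene both a readout of the receptor and a brake on it. The intestine can also make and reactivate glucocorticoids locally.

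Promoter windows are shown for the genes whose known regulators can be looked for by sequence: Sgk1, in which the search found a full receptor element, and the neighbouring Mt1 and Mt2, whose levels differed unequally between the treatments. The sequences are from RefSeq on GRCm38.p6, run 5' to 3' on the gene's own strand, and cover 250 bases before to 50 bases after an annotated start. The Sgk1 window lies at chr10:21993640-21993939 on the plus strand, and its capitals mark an inverted repeat of AGAACA and TGTTCT separated by 3 bases, which begins 189 bases before that start.
Sgk1: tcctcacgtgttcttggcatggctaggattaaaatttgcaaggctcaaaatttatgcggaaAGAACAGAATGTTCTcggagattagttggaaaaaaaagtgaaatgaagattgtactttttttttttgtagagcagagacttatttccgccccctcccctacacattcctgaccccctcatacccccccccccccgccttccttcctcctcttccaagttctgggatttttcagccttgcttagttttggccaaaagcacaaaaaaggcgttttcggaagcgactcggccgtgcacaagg
The Mt2 window lies at chr8:94172368-94172667 and the Mt1 window at chr8:94178839-94179138, both on the plus strand. Their capitals mark the core of metal response elements, TGCACNC or TGCGCNC on either strand.
Mt2: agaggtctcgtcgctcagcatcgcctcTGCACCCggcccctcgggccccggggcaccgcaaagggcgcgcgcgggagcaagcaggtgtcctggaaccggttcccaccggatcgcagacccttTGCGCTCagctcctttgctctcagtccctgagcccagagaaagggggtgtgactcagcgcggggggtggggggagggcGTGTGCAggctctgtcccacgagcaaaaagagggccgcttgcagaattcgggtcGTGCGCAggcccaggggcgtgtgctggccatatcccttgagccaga
Mt1: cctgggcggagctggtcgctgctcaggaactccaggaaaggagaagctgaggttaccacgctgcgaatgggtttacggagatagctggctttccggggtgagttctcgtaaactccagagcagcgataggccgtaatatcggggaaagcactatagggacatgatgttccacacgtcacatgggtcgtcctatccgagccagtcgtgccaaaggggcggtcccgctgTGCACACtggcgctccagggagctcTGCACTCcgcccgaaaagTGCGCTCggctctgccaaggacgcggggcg
The inverted repeat was present in 1 of 6 Sgk1 windows and in 3 of all 32851 mouse windows (0.00913%). A single AGAACA site on either strand was present in 3 of the 6 Sgk1 windows and in 1 of 3 Tsc22d3 windows, and in 19% of all windows. These letters were not found in the windows of Fkbp5, Klf9, Mt1, Mt2 and Pdk4. The metal response core occurred 4 times in the Mt2 window and 3 times in the Mt1 window, and at least once in 25.7% of all windows. Windows of Zbtb16 and Cebpd were not analysed here. A match describes letters in a window of 300 bases and not binding. A window without a match says nothing of elements elsewhere in or near the gene, or of elements with other letters.

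Recovered library totals ran from 2197222 to 2832876 reads in the PEGPH20 libraries and from 2075588 to 2616142 reads in the vehicle libraries, so that 1 read was worth 0.353 to 0.482 CPM. PEGPH20 replicate 5 stood apart: across genes, it correlated with the other 5 libraries at 0.836 to 0.901, against 0.945 to 0.979 among those 5, and 5.15% of its reads were mitochondrial mRNA, against 3.34% to 3.99%. Many results below are therefore also given without it, and those given only with all 6 libraries can depend on it. The epithelial genes Epcam and Vil1 were abundant in every library, with at least 1266 CPM and 367 CPM. The labels do not say whether the tumors came from separate mice, so every test measures the spread between these samples.

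Fkbp5 was lower in every PEGPH20 tumor than in every vehicle tumor. The gene (ENSMUSG00000024222, chr17:28399094-28517527, minus strand, GRCm38) had 13.8, 9.59 and 11.8 CPM in PEGPH20 replicates 4, 5 and 6, against 39.5, 48.9 and 50.8 CPM in vehicle replicates 1, 2 and 3. The highest PEGPH20 library thus lay well below the lowest vehicle library, and the groups did not overlap. The means were 11.7 ± 2.09 CPM in PEGPH20 tumors and 46.4 ± 6.07 CPM in vehicle tumors (SD, n = 3 each), and the log2 difference on the log2(CPM + 1) scale was -1.90 (SE 0.20). The mean of the PEGPH20 tumors was 0.253 of the vehicle mean. These values rest on 39, 23 and 26 reads in PEGPH20 libraries and 82, 128 and 133 reads in vehicle libraries. All 3 PEGPH20 libraries contributed in like measure, lying 1.68, 2.16 and 1.88 log2 units below the vehicle mean. Leaving out PEGPH20 replicate 5 gave a log2 difference of -1.78 (SE 0.18). These are bulk tumors, in which fewer cells of a type and less RNA per cell cannot be told apart.

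Fkbp5 was the 1 member past an adjusted p of 0.05 in limma's fit over all genes, in which 9 of 11389 genes tested passed (0.079%), 6 of them lower (0.0527%) and 3 higher (0.0263%). Because the gene was chosen from this comparison, nothing is read from that call. It was also made under all 10 other settings that kept the 6 libraries, among them edgeR's quasi-likelihood test (0.0527% of genes lower) and limma-voom (0.114% lower). Mt2 joined it with no filter on low counts (0.0868% of genes lower), and Mt2 and Zbtb16 joined it in DESeq2 (1.31% lower). With 1 library left out it was made only without PEGPH20 replicate 5, and not without PEGPH20 replicate 4 or 6 or vehicle replicate 1, 2 or 3, while the log2 difference stayed between -2.02 and -1.78.

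The receptor gene Nr3c1 was the 1 tested member that was higher in PEGPH20 tumors. Nr3c1 (ENSMUSG00000024431) had 116, 165 and 108 CPM in PEGPH20 replicates 4, 5 and 6, against 80.5, 90.2 and 74.2 CPM in vehicle replicates 1, 2 and 3. Every PEGPH20 library was above every vehicle library, and replicate 5 was the highest of them. Its means were 129.9 ± 30.7 CPM in PEGPH20 tumors and 81.6 ± 8.1 CPM in vehicle tumors (SD, n = 3 each), with a log2 difference of 0.64 (SE 0.19). Without PEGPH20 replicate 5 the log2 difference was 0.46 (SE 0.13). The receptor's mRNA and the mRNA of its brake Fkbp5 thus lay in opposite directions in the same libraries. Of the 50-base words in the last 500 bases of Nr3c1 transcripts, 0.165% also occur in other genes, and none do for the other 9 genes.

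Zbtb16 encodes PLZF, a zinc finger transcriptional repressor that glucocorticoids induce in several tissues. The gene (ENSMUSG00000066687, chr9:48654297-48836222, minus strand) had 1.06, 0.417 and 1.37 CPM in PEGPH20 replicates 4, 5 and 6, against 8.67, 6.12 and 7.64 CPM in vehicle replicates 1, 2 and 3. In reads these are 3, 1 and 3 in PEGPH20 libraries and 18, 16 and 20 in vehicle libraries, so all PEGPH20 libraries were at or under the floor of 3 reads. The gene passed the filter on low counts only through the vehicle libraries. The groups did not overlap. Its log2 difference of -2.14 (SE 0.32) depends on the pseudocount and test used, and ran from -2.97 to -1.07 over the other settings with all 6 libraries. Without PEGPH20 replicate 5 it was -1.93 (SE 0.35).

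Sgk1 encodes a kinase induced by serum and glucocorticoids that promotes sodium uptake in epithelia. The gene (ENSMUSG00000019970, chr10:21882184-21999903, plus strand) had 38.1, 100.4 and 31.4 CPM in PEGPH20 replicates 4, 5 and 6, against 138, 114 and 118 CPM in vehicle replicates 1, 2 and 3. The groups did not overlap, but PEGPH20 replicate 5 was close to the vehicle libraries, 0.29 log2 units below their mean, where replicates 4 and 6 were 1.66 and 1.93 units below it. The means were 56.7 ± 38.1 CPM in PEGPH20 tumors and 123 ± 13.2 CPM in vehicle tumors (SD, n = 3 each), and the log2 difference was -1.29 (SE 0.39). Without PEGPH20 replicate 5 it was -1.80 (SE 0.14). The window printed for Sgk1, with its full receptor element, belongs to 1 of several annotated starts, and tags at the 3' end do not tell which start was used.

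**Figure D1:**
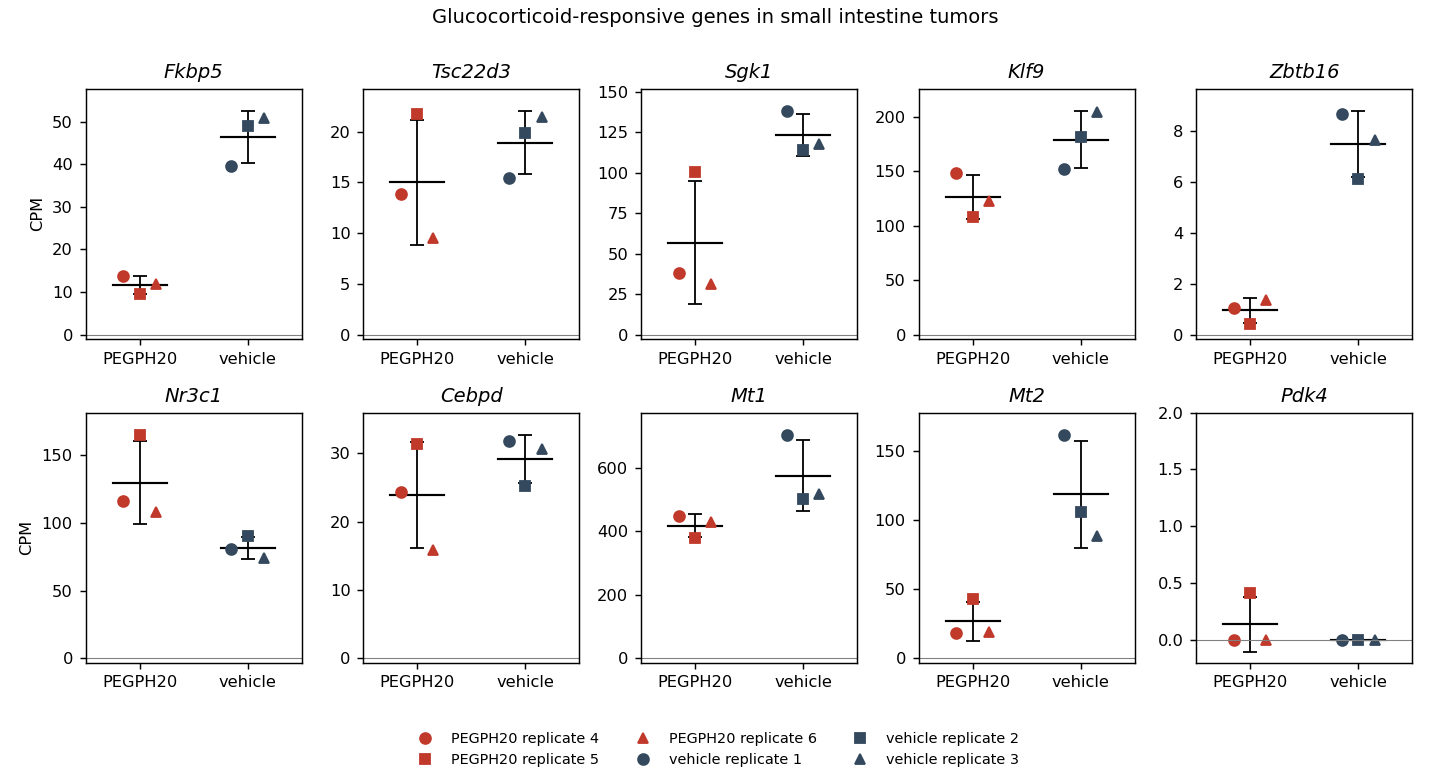
Level of each of the 10 genes in CPM (vertical axes, each with its own range) in PEGPH20 and vehicle tumors, with a point for each library and the mean ± SD of 3. Fkbp5 lies between 9.59 and 13.8 CPM in PEGPH20 tumors and between 39.5 and 50.8 CPM in vehicle tumors, and Nr3c1 lies higher in PEGPH20 tumors than in vehicle tumors.

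Mt1 and Mt2 encode metallothioneins, small cysteine-rich proteins that bind zinc and copper and are induced by both metals and glucocorticoids. The genes are neighbours in tandem on the plus strand of chromosome 8, with 5513 bases between the end of Mt2 (ENSMUSG00000031762, chr8:94172664-94173568) and the start of Mt1 (ENSMUSG00000031765, chr8:94179082-94180327). Mt2 had 18.4, 43.3 and 19.1 CPM in PEGPH20 replicates 4, 5 and 6, against 162, 106 and 88.3 CPM in vehicle replicates 1, 2 and 3. Its groups did not overlap, and PEGPH20 replicate 5 was the closest to vehicle. The means were 26.9 ± 14.2 CPM in PEGPH20 tumors and 119 ± 38.4 CPM in vehicle tumors (SD, n = 3 each), with a log2 difference of -2.16 (SE 0.36), and of -2.55 (SE 0.22) without PEGPH20 replicate 5.

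Mt1 was also lower in PEGPH20 tumors, by much less. It had 448, 377 and 428 CPM in PEGPH20 replicates 4, 5 and 6, against 703, 502 and 518 CPM in vehicle replicates 1, 2 and 3. These groups did not overlap either. The log2 difference of Mt1 was -0.44 (SE 0.16), or -0.37 (SE 0.14) without PEGPH20 replicate 5, with means of 418 ± 36.8 CPM in PEGPH20 tumors and 574 ± 112 CPM in vehicle tumors (SD, n = 3 each). The ratio of Mt2 to Mt1 within a library was 0.041, 0.115 and 0.0446 in PEGPH20 replicates 4, 5 and 6, against 0.23, 0.211 and 0.171 in vehicle replicates 1, 2 and 3. This ratio does not depend on library scaling, and each PEGPH20 value was below each vehicle value. It shows an unequal difference of the neighbours whose promoter windows both hold metal response cores. The last 500 bases of the Mt1 and Mt2 transcripts share no 50-base word, so reads of that length from one do not match the other.

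Klf9 encodes a Krüppel-like transcription factor that glucocorticoids and thyroid hormone induce. The gene (ENSMUSG00000033863, chr19:23141226-23168134, plus strand) had 148, 108 and 123 CPM in PEGPH20 replicates 4, 5 and 6, against 152, 181 and 204 CPM in vehicle replicates 1, 2 and 3. The groups did not overlap, but PEGPH20 replicate 4 and vehicle replicate 1 were nearly level. The log2 difference was -0.50 (SE 0.17), and -0.40 (SE 0.14) without PEGPH20 replicate 5.

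Tsc22d3 and Cebpd overlapped between the treatments. Tsc22d3 (ENSMUSG00000031431, chrX:140539528-140600659, minus strand), which encodes the anti-inflammatory leucine zipper protein GILZ, had 13.8, 21.7 and 9.56 CPM in PEGPH20 replicates 4, 5 and 6, against 15.4, 19.9 and 21.4 CPM in vehicle replicates 1, 2 and 3. PEGPH20 replicate 5 was the highest of all 6 libraries, and the log2 difference was -0.37 (SE 0.30), or -0.66 (SE 0.24) without it. Cebpd (ENSMUSG00000071637, chr16:15887286-15891031, plus strand), which encodes a C/EBP transcription factor induced early by glucocorticoids and by cytokines, had 24.4, 31.3 and 15.9 CPM in PEGPH20 replicates 4, 5 and 6, against 31.8, 25.2 and 30.6 CPM in vehicle replicates 1, 2 and 3. Its log2 difference was -0.32 (SE 0.26), and -0.54 (SE 0.21) without PEGPH20 replicate 5. GILZ is among the classical targets of the receptor, and its level did not separate the treatments as that of Fkbp5 did, although the difference between the genes was not tested.

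Pdk4 (ENSMUSG00000019577, chr6:5483351-5496309, minus strand), a kinase that limits glucose oxidation and is induced by glucocorticoids and fasting, was barely detected. Its row holds 1 read, in PEGPH20 replicate 5, and it did not pass the filter. Libraries of this size put the floor of 3 reads at 1.06 to 1.45 CPM, so no difference in Pdk4 was detectable.

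Among the 9 genes that passed the filter, 6 had all PEGPH20 libraries below all vehicle libraries, 1 had them all above, and 2 overlapped. Over all 11389 genes tested, 17.6% had all PEGPH20 libraries below and 9.71% all above, 27.3% together. The log2 difference was below 0 for 8 of these 9 genes and for 59.8% of all genes tested. As the genes were chosen with results of this comparison known, and Zbtb16 passed only through its high group, nothing is read from these counts. No member changed sign under any alternative tried.

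**Figure D2:**
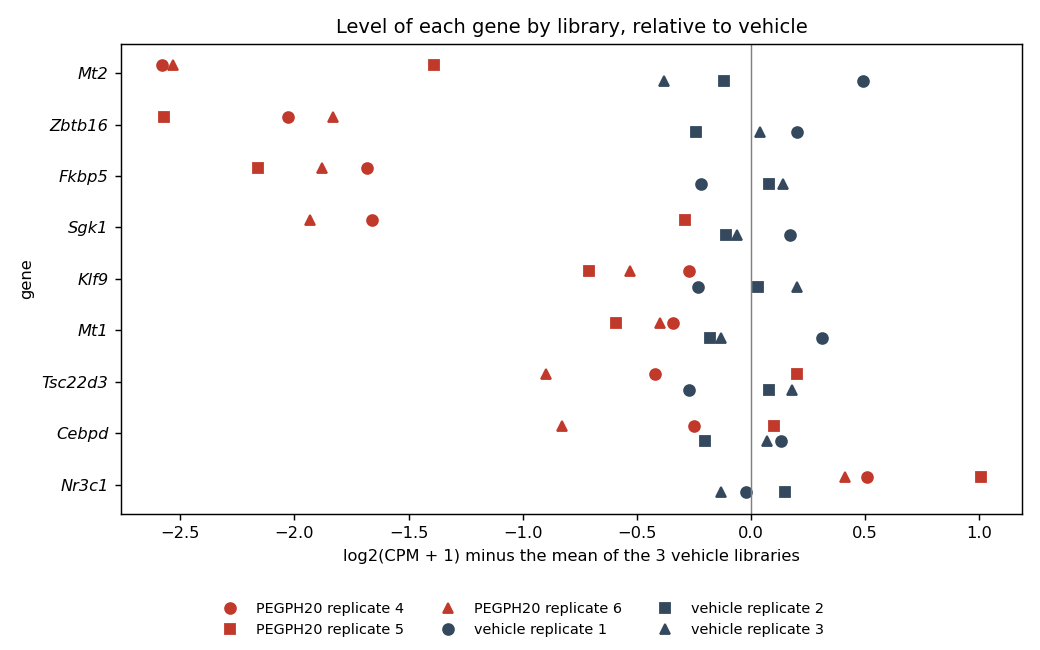
Level of each of the 9 genes that passed the filter (rows) in each library as log2(CPM + 1) minus the mean of the 3 vehicle libraries (horizontal axis), with points for PEGPH20 and vehicle libraries. PEGPH20 replicate 5 is the lowest PEGPH20 library for Fkbp5 at -2.16, and the highest for Sgk1 at -0.29 and for Tsc22d3 at 0.20.

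The members split by how PEGPH20 replicate 5 compared with the other PEGPH20 libraries. It was the lowest of the 3 for Fkbp5, Zbtb16, Klf9 and Mt1, and the highest of the 3 for Sgk1, Mt2, Tsc22d3, Cebpd and Nr3c1. The SD of log2(CPM + 1) among PEGPH20 libraries was 0.88 for Sgk1 and 0.68 for Mt2, against 0.24 for Fkbp5 and 0.13 for Mt1. Among vehicle libraries it ran from 0.14 for Nr3c1 to 0.45 for Mt2. In limma's fit without PEGPH20 replicate 5, 4 members passed lower (Fkbp5, Sgk1, Zbtb16 and Mt2), as did 2.06% of the 11827 genes tested there.

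The receptor's partners mostly had a log2 difference above 0, and none passed with all 6 libraries. None of the 13 receptor, chaperone and coregulator genes passed adjusted p 0.05 in limma, and none did in edgeR or limma-voom, while DESeq2 called Ppid higher (1.12% of all genes were called higher there). At an unadjusted p under 0.05, 3 of the 13 were higher and 0 lower, beside 6.52% higher and 11.5% lower over all genes tested. That count of higher genes depends on the scaling: it was 8 under TMM or RLE scaling, edgeR or limma-voom and 7 under upper quartile scaling or DESeq2, where 7.89% to 9.83% of all genes were higher. The log2 difference was above 0 for 12 of the 13, and their median was 0.31, beside -0.09 over all genes tested. Ppid, which encodes the HSP90 co-chaperone cyclophilin 40, had 60.3 ± 12.7 CPM in PEGPH20 tumors and 32.7 ± 4.84 CPM in vehicle tumors (SD, n = 3 each; log2 difference 0.85, adjusted p = 0.147), and its groups did not overlap. Without PEGPH20 replicate 5, limma called Ppid (log2 difference 1.04, adjusted p = 0.0092) and Hsp90aa1, the inducible HSP90 gene (0.53, adjusted p = 0.0337), both higher.

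The mineralocorticoid receptor gene Nr3c2, whose product also binds glucocorticoids, had 15.8 ± 1.49 CPM in PEGPH20 tumors and 8.84 ± 2.6 CPM in vehicle tumors, without overlap (log2 difference 0.80, adjusted p = 0.183). Ncor1, a corepressor, had a log2 difference of 0.46 (adjusted p = 0.224), and the chaperone gene Hspa8 one of 0.33 (adjusted p = 0.3). Fkbp4 encodes FKBP52, the HSP90 co-chaperone that takes the place of FKBP51 on the activated receptor. It had 154, 136 and 125 CPM in PEGPH20 replicates 4, 5 and 6, against 128, 89.5 and 107 CPM in vehicle replicates 1, 2 and 3, and the groups overlapped. The ratio of Fkbp5 to Fkbp4 tags was 0.0849 ± 0.0127 in PEGPH20 tumors and 0.443 ± 0.122 in vehicle tumors (SD, n = 3 each), without overlap. Since Fkbp5 was chosen for its difference, this ratio is a description.

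Among genes that make, activate or export the steroid, Hsd11b1 differed most in limma's ranking. It encodes the enzyme that regenerates active glucocorticoid from its inactive keto form inside cells. Hsd11b1 had 19.4, 6.25 and 18.7 CPM in PEGPH20 replicates 4, 5 and 6, against 43.8, 45.1 and 40.1 CPM in vehicle replicates 1, 2 and 3. Every PEGPH20 library was below every vehicle library, yet the gene did not pass over all genes with 6 libraries (log2 difference -1.62, adjusted p = 0.147). It passed lower in limma without PEGPH20 replicate 5 (-1.13, adjusted p = 0.00503), as did 2.06% of all genes. It also passed lower in DESeq2 with all 6 libraries, as did 1.31% of all genes.

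Nr5a2 encodes LRH-1, a nuclear receptor that drives steroid synthesis in the mouse intestinal crypt. It had 23.6 ± 9.18 CPM in PEGPH20 tumors and 10.2 ± 0.541 CPM in vehicle tumors (SD, n = 3 each; log2 difference 1.07, adjusted p = 0.155), without overlap. Its log2 difference was 0.78 without PEGPH20 replicate 5. Srd5a1, a steroid reductase, and Abcb1a, an efflux pump that carries glucocorticoids, had log2 differences of -0.95 (adjusted p = 0.245) and -0.35 (adjusted p = 0.223). They were -0.50 and -0.34 without PEGPH20 replicate 5. None of the 6 genes of this list that were tested passed in limma, edgeR or limma-voom, and at an unadjusted p under 0.05, 1 was higher and 3 were lower (6.52% and 11.5% of all genes). Their median was -0.65, and -0.34 over 7 tested without PEGPH20 replicate 5. Hsd11b2, which inactivates the hormone, overlapped between treatments at 5.1 ± 1.77 CPM in PEGPH20 tumors and 3.99 ± 1.67 CPM in vehicle tumors.

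Of 40 further genes known to be induced by glucocorticoids, 31 were tested, and none passed in limma, edgeR or limma-voom. DESeq2 called Lcn2 and Crispld2 lower and Sesn1 higher, beside 1.31% lower and 1.12% higher over all genes. At an unadjusted p under 0.05 in limma, 2 were higher and 9 lower, beside 6.52% and 11.5% of all genes. Their median log2 difference was -0.24, with 10 above 0 and 21 below, beside a median of -0.09 over all genes tested. The list's median was -0.45 without PEGPH20 replicate 4 and -0.43 without vehicle replicate 1, and -0.32 without PEGPH20 replicate 5. All PEGPH20 libraries were below all vehicle libraries for 9 of the 31 and above for 2, beside 17.6% and 9.71% of all genes.

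Per1, a core clock gene with receptor elements of its own, had 6.35, 7.5 and 5.01 CPM in PEGPH20 replicates 4, 5 and 6, against 17.3, 14.5 and 16.1 CPM in vehicle replicates 1, 2 and 3. The groups lay apart with little spread in each (log2 difference -1.23, adjusted p = 0.112). Dusp1, a phosphatase that switches off MAP kinases, overlapped, with 20.2 ± 12.7 CPM in PEGPH20 tumors and 34.8 ± 4.9 CPM in vehicle tumors (SD, n = 3 each; log2 difference -0.94, adjusted p = 0.299). Its log2 difference was -0.45 without PEGPH20 replicate 5. Lcn2, which encodes the iron-carrier-binding protein lipocalin 2, had 2.74 ± 2.55 CPM in PEGPH20 tumors and 21.4 ± 10 CPM in vehicle tumors (log2 difference -2.69, adjusted p = 0.133), and passed the filter only through the vehicle libraries. Crispld2, a secreted protein gene, and Cdkn1a, the cell cycle inhibitor p21, had log2 differences of -1.52 (adjusted p = 0.143) and -0.50 (adjusted p = 0.147). These 4 genes other than Dusp1 did not overlap between the treatments. Without PEGPH20 replicate 5, limma called 7 of 32 tested genes of this list lower (Per1, Errfi1, Cdkn1a, Lcn2, Cd163, Crispld2 and Pck1) and Sesn1 higher, beside 2.06% lower and 0.981% higher over all genes. Per1 then had a log2 difference of -1.35 (adjusted p = 0.0157). Cd163, with 6 reads in PEGPH20 libraries and 34 in vehicle libraries, did not pass the filter with all 6 libraries. It had 0.353 and 0.455 CPM in PEGPH20 replicates 4 and 6. In the fit without PEGPH20 replicate 5, Cd163 and Lcn2 passed the filter only through the vehicle libraries. Nothing is read from their part in the count of 7. With all 6, Pck1 overlapped (log2 difference -0.42, adjusted p = 0.815). Its means were 41.2 CPM in PEGPH20 tumors and 31.1 CPM in vehicle tumors, with 105 CPM in PEGPH20 replicate 5.

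**Figure D3:**
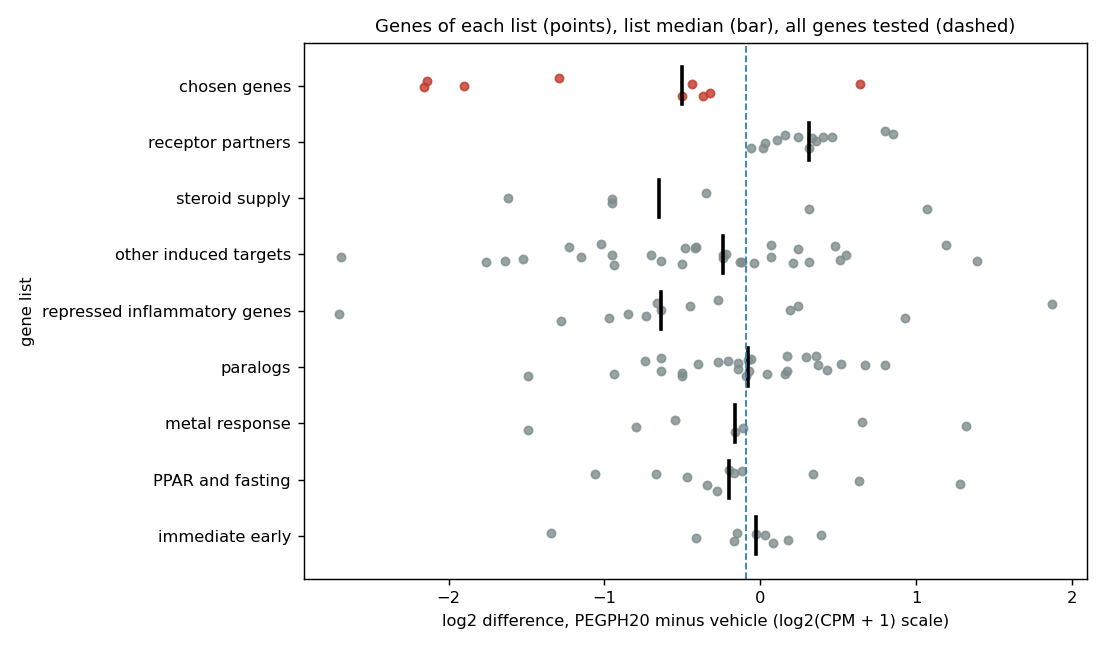
Log2 difference, PEGPH20 minus vehicle, of each tested gene (points) in the chosen set and in 8 related gene lists (rows), with the list median as a bar and the median of all genes tested, -0.09, as a dashed line. The receptor partners have a median of 0.31 and the other induced targets one of -0.24.

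Of 24 inflammatory genes that glucocorticoids repress, 13 were tested, and none passed in limma, edgeR or limma-voom. DESeq2 called Mmp3 lower (1.31% of all genes were called lower there). Mmp3 had 12 reads in all PEGPH20 libraries together. It passed the filter only through the vehicle libraries, so its difference depends on the pseudocount and test. Limma also called it lower without PEGPH20 replicate 5 (-2.23, adjusted p = 0.0462). At an unadjusted p under 0.05, 1 was higher and 4 lower (6.52% and 11.5% of all genes). The median was -0.64, and -0.07 without PEGPH20 replicate 5 or -0.41 without vehicle replicate 3. The matrix metalloproteinase genes Mmp3 (log2 difference -2.70, adjusted p = 0.143) and Mmp13 (-1.28, adjusted p = 0.208) and the adhesion molecule gene Vcam1 (-0.66, adjusted p = 0.174) were below 0. Nos2, the inducible nitric oxide synthase gene, which passed the filter only through the PEGPH20 libraries, was above it (1.87, adjusted p = 0.242), with overlap. The cytokine gene Il1b had 19.5 ± 12.8 CPM in PEGPH20 tumors and 14.1 ± 5.5 CPM in vehicle tumors (SD, n = 3 each), and Il6 had 7 reads in each group. The log2 difference of Il1b was 0.19, and 0.93 without PEGPH20 replicate 5.

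Paralogs give a view of whether relatives of the members differed as well. Of 33 paralogs, 27 were tested, and none passed in limma, edgeR, DESeq2 or limma-voom, with 3 higher and 5 lower at an unadjusted p under 0.05 (6.52% and 11.5% of all genes). Their median was -0.08, -0.13 without PEGPH20 replicate 4, -0.05 without PEGPH20 replicate 6, and 0.01 or 0.02 under TMM or RLE scaling. Among the FKBP genes, Fkbp10 and Fkbp9, which act in the endoplasmic reticulum on secreted proteins, had log2 differences of -1.49 (adjusted p = 0.177) and -0.94 (adjusted p = 0.192), without overlap, and Fkbp10 passed the filter only through the vehicle libraries. Fkbp1a, which encodes the FK506-binding protein FKBP12, had -0.50 (adjusted p = 0.2). Fkbp2 lay the other way, at 0.67 (adjusted p = 0.202), without overlap. Fkbp4 at 0.36 (adjusted p = 0.306) and Fkbp11 at 0.17 (adjusted p = 0.809) were above 0 too, with overlap. The other tested FKBP relatives were below 0.

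The relatives of Sgk1 lay near 0, at 0.04 for Sgk2 and -0.06 for Sgk3. The same was so of the relatives of Zbtb16, at -0.07 for Zbtb7a and -0.08 for Zbtb7b. Klf13, the closest relative of Klf9, had -0.40 with overlap, and Tsc22d1 had -0.21 without. Pdk1, a relative of Pdk4, had 38.9 ± 5.36 CPM in PEGPH20 tumors and 61.3 ± 8.64 CPM in vehicle tumors (SD, n = 3 each; log2 difference -0.64, adjusted p = 0.161). The metallothionein genes Mt3 and Mt4 were not tested, with 3 and 1 reads in PEGPH20 libraries and 8 and 2 reads in vehicle libraries.

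**Figure D4:**
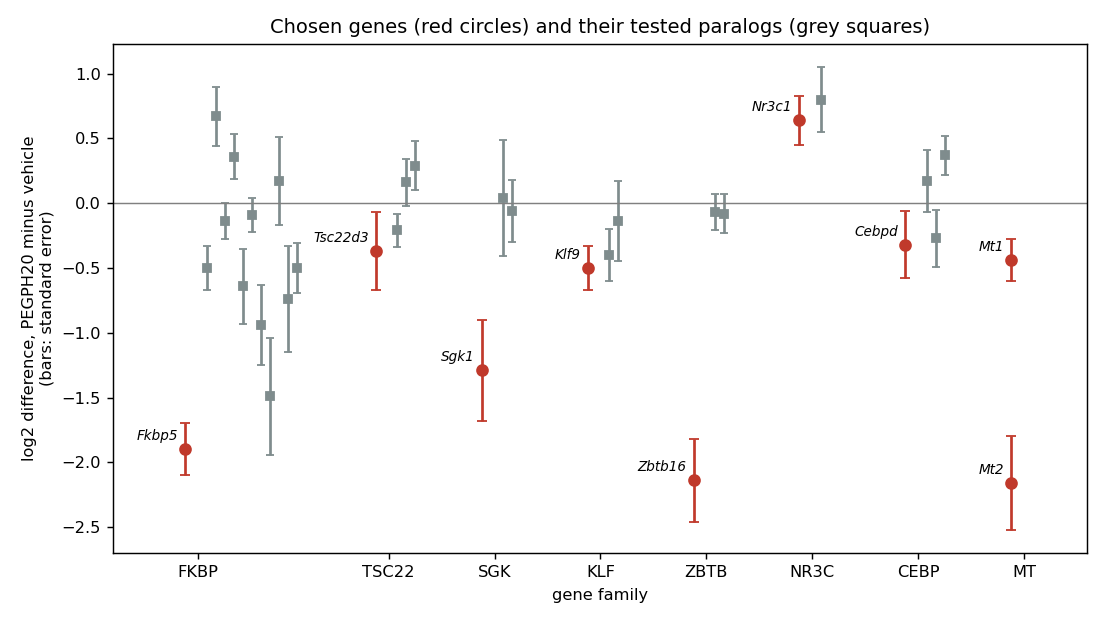
Log2 difference, PEGPH20 minus vehicle, with its standard error (vertical axis) of the tested genes described here (circles) and of their tested paralogs (squares), by gene family (horizontal axis). Fkbp5 at -1.90 is the lowest of the FKBP genes, and Mt2 at -2.16 lies below its neighbour Mt1 at -0.44.

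Genes linked to other inducers of some members are given as a description, and the activity of those inducers was not tested. Of 8 genes of zinc handling and metal response, 7 were tested and none passed in limma, edgeR, DESeq2 or limma-voom, with 2 higher and 2 lower at an unadjusted p under 0.05 (6.52% and 11.5% of all genes). Their median was -0.16, and ran from -0.25 without vehicle replicate 1 to 0.17 without PEGPH20 replicate 5, with -0.10 without PEGPH20 replicate 6 and -0.07 without vehicle replicate 2. Slc30a1, the zinc exporter gene that metals induce together with the metallothioneins, had 28.2 ± 10.5 CPM in PEGPH20 tumors and 29.3 ± 3.17 CPM in vehicle tumors (SD, n = 3 each; log2 difference -0.11, or -0.36 without PEGPH20 replicate 5). Mtf1, the gene of the metal-sensing transcription factor, had a log2 difference of 0.65 (adjusted p = 0.256), and the haem oxygenase gene Hmox1, which passed the filter only through the vehicle libraries, one of -1.49 (adjusted p = 0.219). They were 0.34 and -0.82 without PEGPH20 replicate 5. Slc39a5, a zinc importer gene that passed only through the PEGPH20 libraries, had 1.32 (adjusted p = 0.202). Slc30a10, a manganese exporter gene, had -0.80 (adjusted p = 0.224), and passed lower without PEGPH20 replicate 5 (-1.13, adjusted p = 0.0157).

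Genes of fasting and PPAR signalling, which share Pdk4 and Angptl4 with the glucocorticoid response, had a median of -0.20 over 11 tested. It was -0.07 without PEGPH20 replicate 5, -0.08 without vehicle replicate 2, -0.41 without PEGPH20 replicate 6 and -0.34 without vehicle replicate 3. Of these genes, none passed in limma, edgeR, DESeq2 or limma-voom and 1 was lower at an unadjusted p under 0.05 (11.5% of all genes). That gene was Acot2, an acyl-CoA thioesterase gene (log2 difference -1.06, adjusted p = 0.161), which passed lower without PEGPH20 replicate 5 (-1.25, adjusted p = 0.0366). The others named, with overlap, were Acadl at -0.67 (adjusted p = 0.329), Ucp2 at -0.47 (adjusted p = 0.329) and Acadm at 0.34 (adjusted p = 0.396). Immediate early genes, which mark recent stimulation or stress, had a median of -0.03 over 9 tested, which lay above 0 when TMM, RLE or upper quartile factors were used. With 1 library left out that median took either sign, between -0.20 without PEGPH20 replicate 4 and 0.18 without PEGPH20 replicate 5. None passed in limma, edgeR or limma-voom, and DESeq2 called Ier3 lower (1.31% of all genes were called lower there). At an unadjusted p under 0.05, 2 were lower (11.5% of all genes). Ier3 was at -1.34 (adjusted p = 0.155), and passed lower in limma without PEGPH20 replicate 5 (-0.93, adjusted p = 0.0118). Ier3 and Jund, which was at -0.41 (adjusted p = 0.269), did not overlap between the treatments, and Atf3 was at 0.39 (adjusted p = 0.517) and Jun at 0.18 (adjusted p = 0.541), with overlap. Fos was level, with 92.3 ± 24.3 CPM in PEGPH20 tumors and 92.9 ± 15.03 CPM in vehicle tumors (SD, n = 3 each).

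The genes whose profile over the 6 libraries was most like that of Fkbp5 were Hebp2, Gdf15, Ackr4, Epha3 and Nox4. Likeness was the root mean square difference of log2(CPM + 1), centred on each gene's mean, over 11388 genes compared, and it was 0.159 for Hebp2 and 0.261 for Nox4. Hebp2 had 1.41, 0.834 and 1.82 CPM in PEGPH20 replicates 4, 5 and 6, against 6.75, 6.88 and 8.03 CPM in vehicle replicates 1, 2 and 3. Gdf15, which encodes a stress-induced secreted factor of the TGF-beta family, had 3.53, 2.5 and 5.01 CPM in PEGPH20 libraries and 11.1, 14.1 and 14.9 CPM in vehicle libraries. All 5 passed the filter only through the vehicle libraries, and their likeness to Fkbp5 is what chose them. Of the other members, Zbtb16 ranked 13 by this measure, Mt2 796, Klf9 1195 and Sgk1 1460, and Nr3c1 came last of them at 10618. Zbtb16 too passed the filter only through the vehicle libraries, and its difference depends on the pseudocount. As the members were chosen with results of this comparison known, nothing is read from these ranks.

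Markers of fibroblasts and endothelium were also lower in PEGPH20 tumors. All 7 fibroblast markers had a log2 difference below 0 (median -1.28, or -0.81 without PEGPH20 replicate 5), and their summed level was 1630.1, 592 and 1424 CPM in PEGPH20 replicates 4, 5 and 6, against 3088, 3007 and 3046 CPM in vehicle replicates 1, 2 and 3. All 6 tested endothelial markers of 7 were below 0 (median -0.94), and 5 of them were without PEGPH20 replicate 5 (median -0.67). The endothelial sums were 157, 95.02 and 143 CPM in PEGPH20 libraries and 274, 262 and 253 CPM in vehicle libraries. The groups did not overlap in either sum. With all 6 libraries none of either list passed in limma or edgeR, while limma-voom, and limma with no filter, called the endothelial phosphatase gene Ptprb lower. At an unadjusted p under 0.05, 6 and 5 were lower (11.5% of all genes), and DESeq2 called 4 and 2 lower (1.31% of all genes). Limma called 5 and 3 lower without PEGPH20 replicate 5 (2.06% of all genes). In limma with all 6 libraries, the collagen genes Col1a1, Col1a2 and Col3a1 were at -2.12 (adjusted p = 0.146), -1.53 (adjusted p = 0.143) and -1.36 (adjusted p = 0.135), and Pdgfra was at -1.26 (adjusted p = 0.171). Ptprb was at -1.25 (adjusted p = 0.0841), Kdr at -0.82 (adjusted p = 0.135) and Pecam1 at -0.90 (adjusted p = 0.183), and Vwf, which passed the filter only through the vehicle libraries, at -1.66 (adjusted p = 0.113). None of these 8 genes overlapped between the treatments. The lowest sum of both lists was in PEGPH20 replicate 5. That library was also the lowest for Fkbp5, Zbtb16, Klf9, Mt1 and Hsd11b1. It was the highest PEGPH20 library for Sgk1, Mt2, Tsc22d3, Cebpd, Nr3c1 and Per1. The part of these cells in the levels of Fkbp5 and the other members was not tested.

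The summed epithelial markers overlapped, at 5769.6 to 8109 CPM in PEGPH20 libraries and 8059 to 9127 CPM in vehicle libraries, but single markers lay apart in both directions. The keratin genes Krt8, Krt18 and Krt19 were lower without overlap, at -0.69 (adjusted p = 0.285), -1.30 (adjusted p = 0.297) and -0.82 (adjusted p = 0.309), and at -0.31, -0.50 and -0.32 without PEGPH20 replicate 5. Epcam was higher without overlap, at 0.33 (adjusted p = 0.275). Smooth muscle markers overlapped too, at 341 to 504 CPM in PEGPH20 libraries and 464 to 586 CPM in vehicle libraries. Their genes Tagln, Acta2, Myh11 and Cnn1 were at -0.47, -0.63, -0.40 and -0.31 (adjusted p = 0.211, 0.277, 0.309 and 0.627). Leukocyte markers summed to 2839.9 to 3557 CPM in PEGPH20 libraries and 1865 to 2306 CPM in vehicle libraries, without overlap. Most of this sum came from the plasma cell gene Jchain, at 0.71 (adjusted p = 0.143). Jchain passed higher in DESeq2, as did 1.12% of all genes, and in limma without PEGPH20 replicate 5, as did 0.981%. Ptprc, which marks leukocytes at large, was also at 0.71 (adjusted p = 0.151), without overlap. The neutrophil genes lay the other way, with S100a8 at -2.33 (adjusted p = 0.178, lower in DESeq2), without overlap, and S100a9 at -2.09 (adjusted p = 0.203), and both passed the filter only through the vehicle libraries. Among glial and neuronal markers, S100b was at -1.73 (adjusted p = 0.249), Uchl1 at -0.70 (adjusted p = 0.262) and Elavl4 at -0.17 (adjusted p = 0.787), and these 3 passed the filter only through the vehicle libraries. The adipocyte genes Adipoq and Plin1 were at 0 in 3 of the 6 libraries and near 0 in the others. The adipocyte list summed to 16.8 to 39.5 CPM in PEGPH20 libraries and 33.7 to 54.3 CPM in vehicle libraries, most of it from Fabp4, and the pancreatic acinar genes summed to at most 1.15 CPM in any library.

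**Figure D5:**
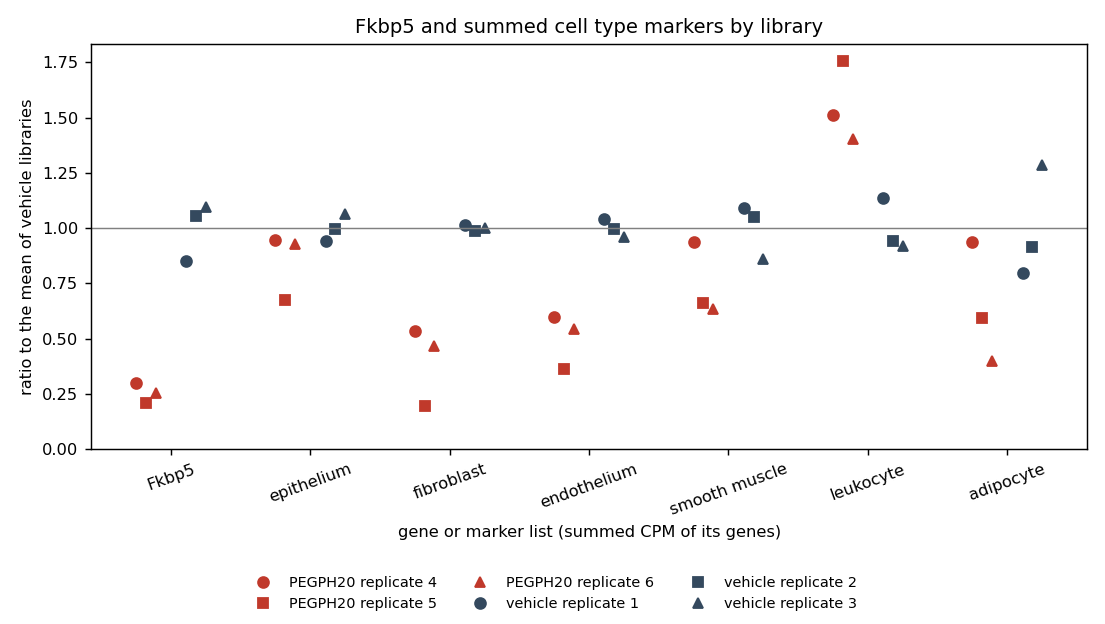
Level of Fkbp5 and summed CPM of 6 cell marker lists in each library as a ratio to the mean of the 3 vehicle libraries (vertical axis, from 0), with points for PEGPH20 and vehicle libraries. Fkbp5 and the fibroblast and endothelial sums are below every vehicle library in all 3 PEGPH20 libraries, and the epithelial and smooth muscle sums overlap.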

How the data were processed

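QuantSeq 3' mRNA libraries of 6 small intestine tumors were analysed, 3 per treatment. The values the authors deposited are a signal in CPM, and genome build GRCm38 is named per the submitters' processing notes. Which aligner, counting tool and annotation release were used, and whether molecular identifiers were collapsed, is not given in the sources used here. A row holding the column total was left out. Reads were recovered by division, and 100% of values were whole within 1e-06 of a read. Symbols came from GENCODE annotation on GRCm38 and matched 21786 of 21878 rows.

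The members and the gene lists were chosen with earlier results of these data known. Since the values are normalized, limma 3.58.1 (R 4.3.3), with the trend option, was applied to log2(CPM + 1), a scale that understates differences of low genes, after filterByExpr of edgeR 4.0.16 (minimum count 10, here 3.99 CPM in at least 3 libraries), with Benjamini-Hochberg adjustment over all genes tested and a threshold of 0.05. Errors of log2 differences are those of this fit. The script was tested on simulated data. Alternatives were TMM, RLE and upper quartile scaling, pseudocounts of 0.1 and 5, no filter, a filter of 1 CPM in 3 libraries, edgeR's quasi-likelihood test, DESeq2 1.42.0 and limma-voom on recovered reads, and leaving out each library. The text names the members, from each related or cell marker list the genes that passed and the 4 with the smallest p among the others, Per1 and Dusp1, and the 5 genes most like Fkbp5. Further genes named for their role (Fkbp4, Fkbp1a, Fkbp2, Fkbp11, Sgk2, Sgk3, Zbtb7a, Zbtb7b, Klf13, Tsc22d1, Hsd11b2, Slc30a1, Fos, Il1b, Il6, Vil1, Adipoq, Plin1) or for a call in an alternative fit (Sesn1, Errfi1, Cd163, Pck1, Hsp90aa1) were added after their values were seen. Recovered totals of 2075588 to 2832876 reads limit genes of few reads such as Zbtb16 and Pdk4. A gene that this rule names and the sum of its marker list are not reported here.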

Additional observations from a re-analysis of the deposited data

How the results depend on the processing

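With all 6 libraries, limma called 3 genes higher and 6 lower in PEGPH20 tumors, and the split was 4 and 5 under TMM or upper quartile scaling. Calls were 3 lower with a pseudocount of 0.1, 10 higher and 19 lower without a filter, 5 and 13 with limma-voom, and 128 and 149 with DESeq2. Leaving out 1 library gave 1 to 116 genes higher and 0 to 244 lower, both highest without PEGPH20 replicate 5. The scalings moved the median of all genes from -0.09 to -0.01 (TMM), 0.01 (RLE) and -0.04 (upper quartile).

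Members called lower were 1 (Fkbp5), 2 without a filter (with Mt2), 3 with DESeq2 (with Mt2 and Zbtb16), and 0 to 4 with 1 library left out. Over all genes, 0.0527% were called lower, 0.0868% without a filter, 1.31% with DESeq2 and 2.06% without PEGPH20 replicate 5. The members were chosen with results of this comparison known, so nothing is read from their counts. Fkbp5 had a log2 difference of -1.62 with a pseudocount of 5, and no member changed sign. DESeq2 called 1 other target higher and 2 lower, 1 receptor, chaperone or ligand gene higher and 1 lower, and 1 inflammatory gene lower, where limma called none. With 1 library left out these counts ran from 0 to 1 and 0 to 7 for other targets, 0 to 2 and 0 to 1 for receptor, chaperone and ligand genes, and 0 to 1 for inflammatory genes. Paralogs had 0 calls in every setting. The causes of these differences were not tested. No paired analysis was possible because the labels share no replicate number between the treatments.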
